A study of Homo sapiens with 4 samples.

Results

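The miR-15 and miR-16 family is a group of microRNAs (miRNAs) that share a seed, the stretch of bases near the 5′ end that pairs with target messenger RNAs. The members were chosen by name as the mature 5p strands hsa-miR-16-5p, hsa-miR-15a-5p, hsa-miR-15b-5p, hsa-miR-195-5p and hsa-miR-497-5p. These are 5 of 1619 miRNAs listed for either replicate. For replicate 1, 1315 miRNAs were listed, of which 4 were members, and for replicate 2, 843 were listed, of which 5 were members. The replicates had 539 miRNAs in common. Hsa-miR-497-5p was listed for replicate 2 alone and was treated as unknown in replicate 1.

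Small RNA was sequenced from extracellular vesicles (EVs), the membrane-bound particles that cells release, of MDA-MB-231. This established human cell line of triple-negative breast cancer was labelled as an epithelial cell of WT genotype. At near confluence, cells received EV-free DMEM (group 231 EV) or medium lacking glucose (group 231 -G EV) for 12 h, and EVs were pelleted from that medium at 110000 × g for 70 min. All cultures had been grown beforehand with fetal bovine serum, and the labels call EV-free the DMEM but not the medium lacking glucose. Each group had 2 libraries, numbered 1 and 2. For the libraries numbered 2 the labels name both a TruSeq RNA kit and an NEBNext small RNA kit. They also describe a pretreatment that removes RNA modifications, followed by adapter ligation and selection of inserts of 14 to 40 nt. This insert range is recorded for the libraries numbered 1, and the labels do not say whether these steps applied to the libraries numbered 2. The replicate number and the library preparation therefore cannot be told apart. No label says that same-group libraries came from separate cultures, so p-values across them measure only the spread between these libraries, which may be technical. In bulk EV RNA, fewer vesicles that carry a miRNA and fewer copies per vesicle cannot be told apart.

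MiRNAs guide Argonaute proteins to messenger RNAs that pair with the seed, which lowers the stability and translation of those messages. MiRNAs of the miR-15 and miR-16 family are known as growth-restraining miRNAs that target BCL2 and several cyclins, and the cluster of miR-15a and miR-16 is often lost in chronic lymphocytic leukaemia. Hsa-miR-16-5p is abundant in many tissues and in red blood cells, and it is widely used as a reference for other miRNAs in blood and vesicle samples.

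The mature sequences below, from RefSeq (GRCh38.p14), are shown because they define the family and show how far reads of its members can be told apart. Capitals mark the seed, bases 2 to 8 from the 5′ end.
hsa-miR-16-5p: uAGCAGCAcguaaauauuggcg
hsa-miR-15a-5p: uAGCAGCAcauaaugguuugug
hsa-miR-15b-5p: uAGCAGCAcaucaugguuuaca
hsa-miR-195-5p: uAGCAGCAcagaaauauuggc
hsa-miR-497-5p: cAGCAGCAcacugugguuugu
hsa-miR-424-5p: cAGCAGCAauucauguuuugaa
hsa-miR-503-5p: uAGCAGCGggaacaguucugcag
All 5 members carried the same 7 letters in the seed. Among 2370 human mature miRNA names in the reference, 2 others had this seed, hsa-miR-424-5p and hsa-miR-6838-5p, and only the former was listed in the data. Hsa-miR-503-5p, from the same cluster as hsa-miR-424-5p on chromosome X, has a last seed base of its own. Positions are counted from 1 at the 5′ end, and the base of the first-named miRNA comes first. Hsa-miR-16-5p and hsa-miR-195-5p shared their first 9 bases and differed at 2 of 21 positions, G10A and U11G. Hsa-miR-15a-5p and hsa-miR-15b-5p shared their first 11 bases and differed at 4 of 22 positions, A12C, G20A, U21C and G22A. The members thus fell into a closely matched pair of miR-16 and miR-195 and a second pair of miR-15a and miR-15b, with hsa-miR-497-5p at 4 of 21 positions from hsa-miR-15a-5p (U1C, U11C, A12U and A13G). A read with a mismatch at a differing base could fall to either miRNA of such a pair. How the authors assigned such reads is not given in the sources used here.

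The members come from 3 clusters on GRCh38, each within a longer transcript. On chromosome 13, MIR15A (chr13:50049119-50049201, minus strand) and MIR16-1 (chr13:50048973-50049061, minus strand) lie 57 bases apart in introns of DLEU2, an antisense long non-coding gene on the same strand. On chromosome 3, MIR15B (chr3:160404588-160404685, plus strand) and MIR16-2 (chr3:160404745-160404825, plus strand) lie 59 bases apart in introns of SMC4, which encodes a condensin subunit. On chromosome 17, MIR195 (chr17:7017615-7017701, minus strand) and MIR497 (chr17:7017911-7018022, minus strand) lie 209 bases apart in MIR497HG, where 1 of 2 spanning transcripts has an exon over them. Mature hsa-miR-16-5p is made from both MIR16-1 and MIR16-2 and has the same sequence at chr13:50049027-50049048 (minus strand) and chr3:160404754-160404775 (plus strand), so its reads cannot be assigned to a locus. The mature sequence of hsa-miR-15a-5p lies at chr13:50049167-50049188, that of hsa-miR-15b-5p at chr3:160404607-160404628, that of hsa-miR-195-5p at chr17:7017667-7017687 and that of hsa-miR-497-5p at chr17:7017979-7017999, each on the strand of its hairpin.

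The libraries differed in depth and in make-up. In replicate 1, 231 EV had 18397 reads in total and 231 -G EV had 15597, and in replicate 2 they had 224966 and 170894. Levels are given as CPM, the count over the library total scaled to 1000000, and 1 read came to 54.4, 64.1, 4.45 and 5.85 CPM in that order. A count of 0 allows up to 3 reads, or 163, 192, 13.3 and 17.6 CPM. Intervals are 95% Wilson intervals for levels and exact conditional intervals for ratios of 2 libraries. Reads were amplified by PCR and carry no molecular identifiers, so they do not count independent molecules, and all intervals, limits and tests on the reads of 2 libraries cover counting error only. Hsa-miR-182-5p, of the miR-183 cluster, held 51.0% of the reads of 231 EV replicate 1 against 2.73%, 0.254% and 0.250% of the others, and it lowered the share left for the remaining miRNAs in that library. Of 8 blood-cell miRNAs, 6, 7, 8 and 8 were above 0, and their summed shares in the same order were 20.1%, 43.0%, 1.07% and 0.472%. Within them hsa-miR-451a, a red blood cell miRNA, held 19.4% and 40.8% of replicate 1, and hsa-miR-486-5p, also of red blood cells, had 96 and 295 reads there. From the cluster of hsa-miR-451a, hsa-miR-144-3p had 13 reads in each of these libraries and hsa-miR-144-5p had 0, and hsa-miR-150-5p was at 0 in 231 EV replicate 1. All 5 epithelial miRNAs of the miR-200 family were above 0 in each library, at a summed 0.0187% to 0.526% of the reads. Some rested on very few reads. Hsa-miR-429 had 2, 1, 2 and 2 reads in the same order, and hsa-miR-141-3p had 2 and 1 in replicate 1.

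Hsa-miR-16-5p was the most abundant member in every library. In replicate 1 its reads numbered 70 in 231 EV (3805 CPM, interval 3013 to 4804) and 40 in 231 -G EV (2565 CPM, 1884 to 3490). In replicate 2 they numbered 15834 (70384 CPM, 69334 to 71448) and 18955 (110917 CPM, 109437 to 112414). The level was thus lower in 231 -G EV than in 231 EV in replicate 1 and higher in replicate 2, and both media had a low and a high library, so the groups overlapped. By rank, hsa-miR-16-5p stood 13 and 40 among all miRNAs of the libraries of replicate 1, and 3 and 2 among those of replicate 2. In replicate 2 it made up 7.04% of all miRNA reads in 231 EV and 11.1% in 231 -G EV, a rise of 4.05 percentage points.

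Hsa-miR-15a-5p, the partner of miR-16 on chromosome 13, numbered 11 reads (598 CPM, 334 to 1070) and 5 reads (321 CPM, 137 to 750.3) in 231 EV and 231 -G EV for replicate 1. For replicate 2 the counts were 217 (965 CPM, 845 to 1102) and 207 (1211 CPM, 1057 to 1388). As for hsa-miR-16-5p, the value was lower in 231 -G EV in replicate 1 and higher in replicate 2, with overlapping groups and, within each replicate, overlapping intervals.

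Hsa-miR-15b-5p, the partner on chromosome 3, was read 13 times in 231 EV (707 CPM, 413 to 1209) and 12 times in 231 -G EV (769 CPM, 440.2 to 1344) for replicate 1. For replicate 2 it was read 634 times (2818 CPM, 2607 to 3046) and 630 times (3686.5 CPM, 3410.1 to 3985). The intervals of the media were apart in replicate 2 and nearly the same in replicate 1, and over both replicates the groups overlapped.

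The cluster of chromosome 17 gave few reads. Hsa-miR-195-5p had 0 reads in 231 EV replicate 1, which allows up to 163 CPM, and 1 read (64.1 CPM, 11.3 to 363) in 231 -G EV replicate 1. For replicate 2 the counts were 73 (324 CPM, 258 to 408) and 60 (351 CPM, 273 to 452). At this depth the level in 231 -G EV replicate 1 could not be told from those of replicate 2, since the interval of its 1 read takes in both values. Hsa-miR-497-5p had 25 reads in 231 EV (111 CPM, 75.3 to 164) and 30 in 231 -G EV (176 CPM, 123 to 251) of replicate 2, with overlapping intervals.

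**Figure D1:**
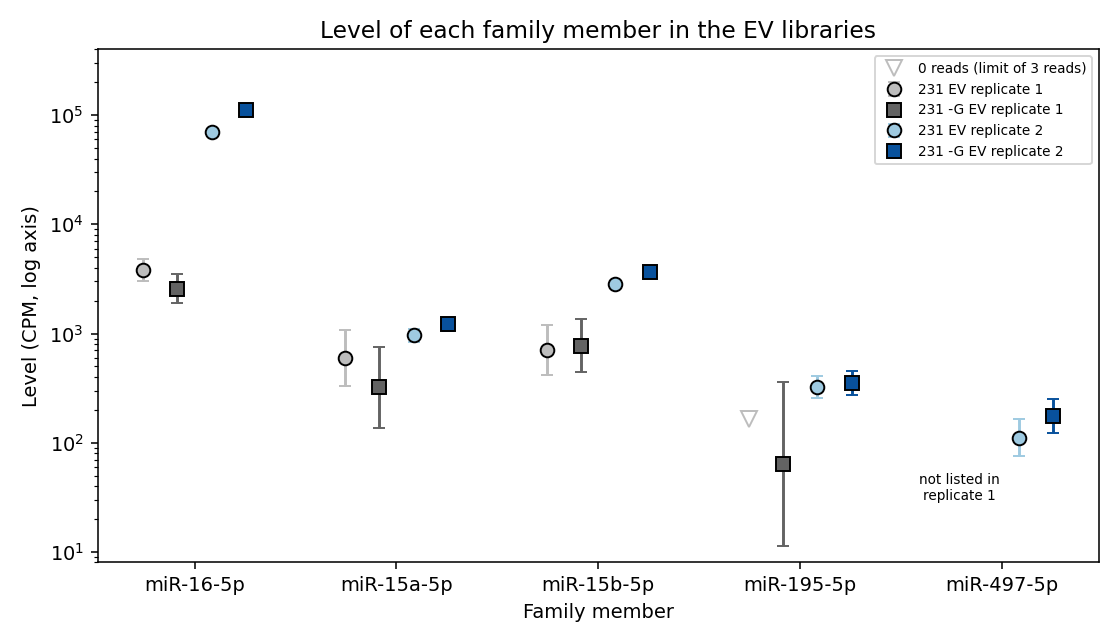
Level of each member (CPM, log axis) in the 4 libraries, with 95% Wilson intervals as bars and an open triangle at the 3-read limit for 0 reads. Hsa-miR-16-5p lies between 2565 and 3805 CPM in replicate 1 and between 70384 and 110917 CPM in replicate 2, above the other members in every library.

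In both libraries of replicate 2 the order of levels was hsa-miR-16-5p, hsa-miR-15b-5p, hsa-miR-15a-5p, hsa-miR-195-5p and hsa-miR-497-5p, and no neighbours had overlapping intervals. The mature forms are 21 or 22 nt long. In replicate 1 hsa-miR-16-5p was first in both media, whereas the intervals of hsa-miR-15b-5p and hsa-miR-15a-5p overlapped and their order could not be read at this depth.

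To ask whether glucose starvation changed the family in EVs, 231 -G EV and 231 EV were first compared within each pair of libraries that shared a replicate number. In pair 1, 0 of the 4 members listed passed Fisher's exact test (two-sided, adjusted over all miRNAs of the pair), against 9.7% of all 670 miRNAs tested, or 7.91% that passed as higher and 1.79% as lower in 231 -G EV. Hsa-miR-16-5p stood in 231 -G EV at 0.674 of its level in 231 EV (0.445 to 1.01; Fisher's exact p = 0.0548, adjusted p = 0.360). For hsa-miR-15a-5p the ratio was 0.536 (0.146 to 1.67; Fisher's exact adjusted p = 0.869) and for hsa-miR-15b-5p it was 1.09 (0.454 to 2.59; Fisher's exact adjusted p = 1). Hsa-miR-195-5p, at 0 reads against 1, gave no ratio (Fisher's exact adjusted p = 0.869). The denominator decided the call for hsa-miR-16-5p. When the library totals excluded hsa-miR-182-5p, its ratio was 0.340 (0.224 to 0.508; Fisher's exact adjusted p = 1.15e-06), and that of hsa-miR-15b-5p moved to 0.549 (0.229 to 1.30; Fisher's exact adjusted p = 0.609), on the other side of 1. This choice shifted every log2 ratio of pair 1 by -0.99, and the calls over all miRNAs went from 53 higher and 12 lower to 18 higher and 34 lower.

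In pair 2, 2 of 5 members passed the same test, hsa-miR-16-5p and hsa-miR-15b-5p, both higher in 231 -G EV. Over all 618 miRNAs tested in this pair, 18.6% passed in either direction, 9.87% as higher and 8.74% as lower. Hsa-miR-16-5p was 1.58 times as high in 231 -G EV (1.54 to 1.61), or 0.66 on the log2 scale, with a Fisher's exact p too small for the arithmetic to hold. Hsa-miR-15b-5p was 1.31 times as high (1.17 to 1.46; Fisher's exact adjusted p = 1.85e-05). The other members gave ratios above 1 that did not pass after adjustment. They were 1.26 for hsa-miR-15a-5p (1.03 to 1.53; Fisher's exact p = 0.0210, adjusted p = 0.103), 1.08 for hsa-miR-195-5p (0.756 to 1.54; Fisher's exact adjusted p = 0.952) and 1.58 for hsa-miR-497-5p (0.898 to 2.80; Fisher's exact adjusted p = 0.351). Each of these tests compares 2 libraries, not the media.

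**Figure D2:**
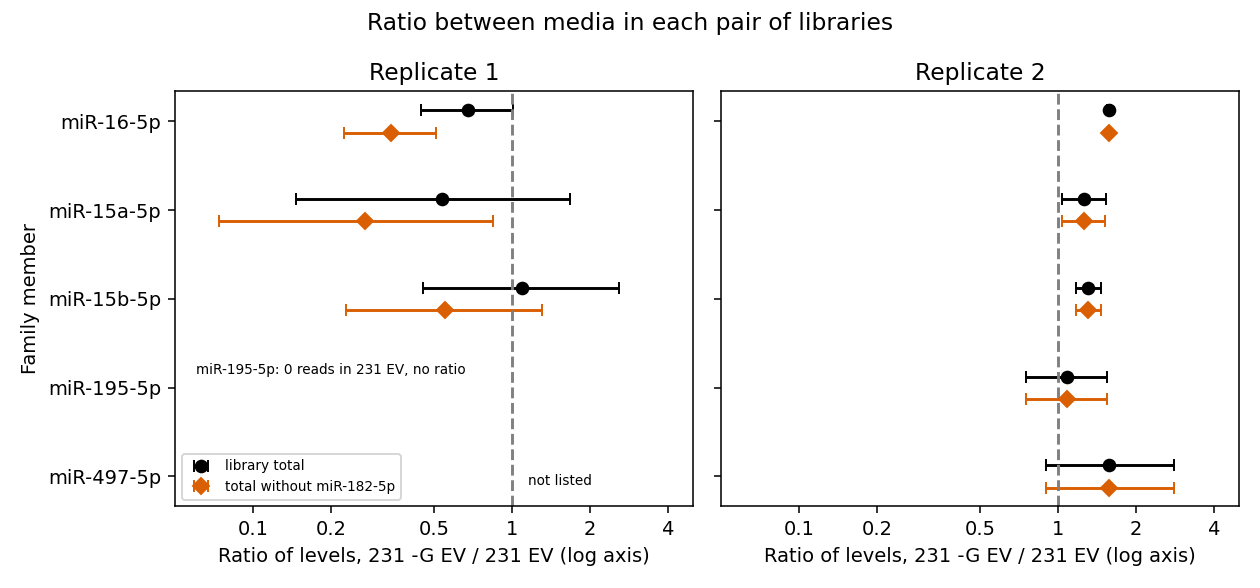
Ratio of levels, 231 -G EV over 231 EV (log axis), of each member in pair 1 (left) and pair 2 (right), with exact 95% intervals, by library total (black) and by the total without hsa-miR-182-5p (orange). Hsa-miR-16-5p lies at 0.674 or 0.340 on the left and at 1.58 on the right.

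Beside all miRNAs of a pair, the members leaned down in pair 1, on few reads and with none passing by library total, and up in pair 2. In pair 1 the 3 members above 0 in both libraries had a median ratio of 0.674, and 1 of them was above 1. The median over all 267 such miRNAs was 1.18, with 66.3% above 1, and over the 127 with 10 reads or more in the pair it was 1.67, with 71.7% above 1. Among these 127, 104 had a higher ratio than hsa-miR-16-5p, 111 than hsa-miR-15a-5p and 88 than hsa-miR-15b-5p, places that a change of the total does not move. When the totals excluded hsa-miR-182-5p, the median over all miRNAs of pair 1 was 0.594, with 34.2% above 1. In pair 2 the median of the 5 members was 1.31, and all 5 were above 1. The median over all 405 miRNAs was 1.05, with 51.6% above 1, and over the 274 with 10 reads or more it was 0.985, with 49.3% above 1. Of the 274, 57 had a higher ratio than hsa-miR-497-5p, 59 than hsa-miR-16-5p, 92 than hsa-miR-15b-5p, 98 than hsa-miR-15a-5p and 123 than hsa-miR-195-5p, which lay near the middle. The summed blood-cell miRNAs went from 20.1% in 231 EV to 43.0% in 231 -G EV in pair 1, or from 41.0% to 44.2% when the totals excluded hsa-miR-182-5p, and from 1.07% to 0.472% in pair 2. In both pairs this was the other direction from hsa-miR-16-5p, and their part in the result was not tested.

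**Figure D3:**
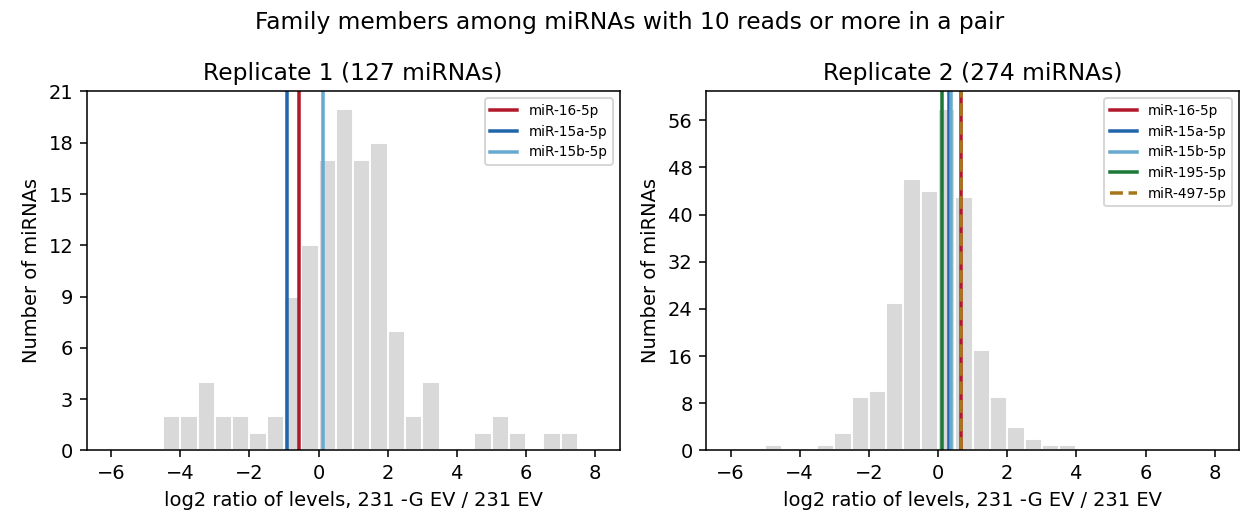
Number of miRNAs by log2 ratio of levels, 231 -G EV over 231 EV, for the 127 miRNAs (pair 1, left) and 274 miRNAs (pair 2, right) with 10 reads or more in the pair and above 0 in both libraries, with family members as lines. The lines of hsa-miR-16-5p stand at -0.57 on the left, where 71.7% of all ratios exceeded 1, and at 0.66 on the right, where 49.3% did.

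Whether the ratio differed between the pairs was tested with an exact test of equal odds ratios over both pairs (two-sided, Benjamini-Hochberg adjusted). Of the 4 members in both lists, 1, hsa-miR-16-5p, passed, against 13.9% of all 295 miRNAs tested and 1.36% whose ratio was higher in pair 2. The ratio of hsa-miR-16-5p in pair 2 was 2.34 times that in pair 1 (1.56 to 3.54; exact adjusted p = 8.3e-05). Hsa-miR-15a-5p gave the same factor, 2.34, with a wide interval (0.734 to 8.74; exact adjusted p = 0.468), and hsa-miR-15b-5p gave 1.20 (0.501 to 2.91; exact adjusted p = 1). Hsa-miR-195-5p, with 1 read in pair 1, did not pass (exact adjusted p = 0.901). With totals that excluded hsa-miR-182-5p, the factor was 4.64 for hsa-miR-16-5p (3.10 to 7.03; exact adjusted p = 2.43e-14) and 4.64 for hsa-miR-15a-5p (1.46 to 17.3; exact adjusted p = 0.0543).

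Across both pairs, no change with medium was found for the family. The quasi-likelihood test of edgeR on all 4 libraries, with the replicate number as a block, called 0 of the 4 members listed for both replicates and 0 of 384 miRNAs (0%), of which 5 had an unadjusted p under 0.05. The log2 fold change of 231 -G EV over 231 EV was 0.06 (SE 0.85) for hsa-miR-16-5p, -0.17 (SE 1.04) for hsa-miR-15a-5p, 0.27 (SE 0.96) for hsa-miR-15b-5p and 0.47 (SE 1.39) for hsa-miR-195-5p, each with an edgeR adjusted p of 0.999. Since hsa-miR-195-5p had 0 reads in 231 EV replicate 1, its fitted value depends on the method, and it was 0.82 with DESeq2 (SE 2.11) and 3.07 with limma (SE 1.97; limma adjusted p = 0.988). The median of the 4 was 0.17 and that of all 384 was 0.20. DESeq2 and limma also called 0 of 384, with 6 and 13 at an unadjusted p under 0.05. The SE given for edgeR is the absolute log2 fold change over the square root of the test's F statistic, and is approximate. Values of this size leave room for changes of several-fold in either direction. For hsa-miR-16-5p the log2 fold change was -0.38 with TMM scaling, -0.39 with totals that excluded hsa-miR-182-5p and -0.23 with DESeq2, so its direction across the pairs depended on the scaling.

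As a whole, the 4 members listed for both replicates held 94 reads of 231 EV (0.511%, 0.418 to 0.625) and 58 of 231 -G EV (0.372%, 0.288 to 0.480) for replicate 1. For replicate 2 they held 16758 reads (7.45%, 7.34 to 7.56) and 19852 reads (11.6%, 11.5 to 11.8). The share in 231 -G EV was 0.728 of that in 231 EV in pair 1 and 1.56 times it in pair 2. Without hsa-miR-182-5p in its total, the share in 231 EV replicate 1 was 1.04%.

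Within the family, hsa-miR-16-5p made up 74.5% (64.8 to 82.2) of the reads of 231 EV and 69.0% (56.2 to 79.4) of those of 231 -G EV for replicate 1. For replicate 2 it made up 94.5% (94.1 to 94.8) and 95.5% (95.2 to 95.8). The intervals of the replicates did not overlap. Those of the media overlapped in replicate 1 and were apart in replicate 2, where the share was higher in 231 -G EV. Hsa-miR-15b-5p made up 13.8%, 20.7%, 3.78% and 3.17% of the family in the same order, and hsa-miR-15a-5p 11.7%, 8.62%, 1.29% and 1.04%. For each read of hsa-miR-15a-5p there were 6.36 and 8.0 reads of hsa-miR-16-5p in replicate 1 and 73.0 and 91.6 in replicate 2.

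**Figure D4:**
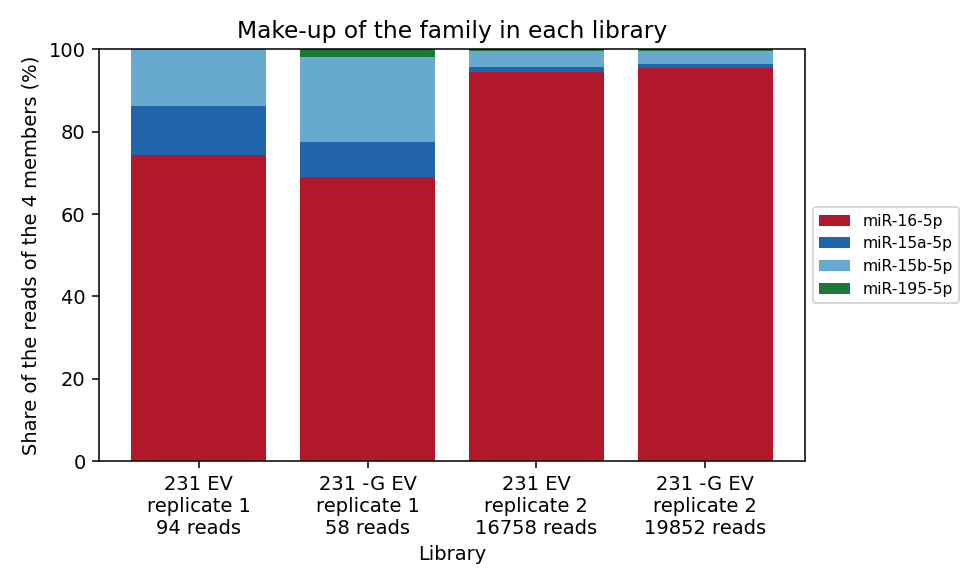
Share of the reads of the 4 members listed for both replicates (%) that each member held in each library, with the number of family reads under each bar. Hsa-miR-16-5p takes 69.0% to 74.5% of the bar in replicate 1 and 94.5% to 95.5% in replicate 2.

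Ratios within the family do not depend on the library total. Relative to hsa-miR-16-5p, the odds ratio of 231 -G EV over 231 EV in pair 2 was 0.797 for hsa-miR-15a-5p (0.655 to 0.970), 0.830 for hsa-miR-15b-5p (0.741 to 0.930), 0.687 for hsa-miR-195-5p (0.479 to 0.980) and 1.00 for hsa-miR-497-5p (0.570 to 1.78). For 3 of the 4 the interval lay below 1, so these members rose less than hsa-miR-16-5p or not at all. This was not particular to them. Of the other 404 miRNAs read in both libraries of pair 2, only 23.5% were higher in 231 -G EV relative to hsa-miR-16-5p. In pair 1 the odds ratio was again 0.797 for hsa-miR-15a-5p, with an interval from 0.202 to 2.71, and it was 1.61 for hsa-miR-15b-5p (0.607 to 4.24).

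The 3p strands of the same hairpins, usually the less stable strand, were rare. Hsa-miR-15a-3p had 0 reads in all 4 libraries. Hsa-miR-16-1-3p had 0, 1, 5 and 3 reads and hsa-miR-16-2-3p had 0, 1, 16 and 11, with replicate 1 before replicate 2 and 231 EV before 231 -G EV. Unlike hsa-miR-16-5p, each of these strands has a sequence of its own and marks its locus. Hsa-miR-195-3p had 0, 0, 4 and 0 reads, and hsa-miR-497-3p, listed for replicate 2 alone, had 4 and 1. These counts were too low to show a change of moderate size. Hsa-miR-15b-3p stood out, with 1 read in each library of replicate 1, and in replicate 2 with 73 reads in 231 EV (324 CPM) and 107 in 231 -G EV (626 CPM). It was 1.93 times as high in 231 -G EV in pair 2 (1.42 to 2.64; Fisher's exact adjusted p = 0.000132). Of the 6 3p strands, 5 had reads in pair 2 and this 1 passed, against 18.6% of all miRNAs tested there, and 3 had reads in pair 1 and 0 passed, against 9.7%. A count of 1 among 5 is close to the background of that pair.
hsa-miR-15b-3p: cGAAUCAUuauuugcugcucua
This strand, shown with its seed in capitals, does not share the family seed. For each of its reads there were in replicate 2 8.68 reads of hsa-miR-15b-5p in 231 EV and 5.89 in 231 -G EV, and the odds ratio of 3p over 5p between the media was 1.47 (1.06 to 2.06). Both strands of the hairpin of MIR15B therefore rose in pair 2, the 3p strand more than the 5p strand.

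The relatives on chromosome X, printed above with the members, were nearly absent from replicate 1 as well. Hsa-miR-424-5p, which has the family seed, had 1 and 0 reads in replicate 1, then 113 reads (502 CPM) in 231 EV and 156 reads (913 CPM) in 231 -G EV of replicate 2. Hsa-miR-503-5p was at 0 throughout replicate 1, then had 88 reads (391 CPM) and 280 reads (1638 CPM). In pair 2 both passed as higher in 231 -G EV, as did 9.87% of all 618 miRNAs tested, hsa-miR-424-5p by a ratio of 1.82 (1.42 to 2.34; Fisher's exact adjusted p = 1.26e-05) and hsa-miR-503-5p by a ratio of 4.19 (3.29 to 5.38; Fisher's exact adjusted p = 4.17e-36). The interval of hsa-miR-503-5p lay above those of all 5 members, and that of hsa-miR-424-5p overlapped them.

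The study names U6 or hsa-miR-16-5p as the reference for its RT-qPCR, so the ratios of all miRNAs were read relative to hsa-miR-16-5p. Some EV levels in the study were instead set against a standard curve of synthetic miRNA. In pair 1, 66.3% of the 267 miRNAs above 0 in both libraries were higher in 231 -G EV by library total, and 75.6% of the other 266 were higher relative to hsa-miR-16-5p, a shift of every log2 ratio by 0.57. In pair 2, 51.6% of 405 were higher by library total and 23.5% of the other 404 relative to hsa-miR-16-5p, a shift of -0.66. The direction of each shift follows from the ratio of hsa-miR-16-5p itself, 0.674 in pair 1 and 1.58 in pair 2. With the sum of the other members as the reference, the shares were 68.7% and 40.9%.

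For hsa-miR-16-5p, the difference between the replicates was larger than that between the media. In the same edgeR fit, 1 of 4 members, hsa-miR-16-5p, passed the adjusted p of 0.05 and a log2 fold change of 1, against 17.2% of all 384 miRNAs and 9.64% that passed as higher in replicate 2. The log2 fold change of hsa-miR-16-5p was 4.82, with an SE of 0.97 (edgeR adjusted p = 4.08e-05), and 56 of the 384 miRNAs had a larger one. The ratio of replicate 2 over replicate 1 was 18.5 (14.6 to 23.7) in 231 EV and 43.2 (31.7 to 60.6) in 231 -G EV. For the other members the log2 fold change was 1.26 for hsa-miR-15a-5p (SE 1.06; edgeR adjusted p = 0.508), 2.13 for hsa-miR-15b-5p (SE 0.99; edgeR adjusted p = 0.135) and 3.49 for hsa-miR-195-5p (SE 1.76; edgeR adjusted p = 0.176). Hsa-miR-195-5p, with 0 and 1 reads in replicate 1, passed the filter on low values only through the deeper replicate 2, so the direction of its value is no result. With limma hsa-miR-16-5p did not pass (log2 fold change 4.82, adjusted p = 0.0882), nor did any other miRNA, although 145 of 384 had an unadjusted p under 0.05.

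The members moved unequally between the replicates. Relative to hsa-miR-16-5p, the odds ratio of replicate 2 over replicate 1 for hsa-miR-15a-5p was 0.0873 (0.0451 to 0.185) in 231 EV and 0.0874 (0.0340 to 0.287) in 231 -G EV. For hsa-miR-15b-5p it was 0.216 (0.118 to 0.427) and 0.111 (0.0567 to 0.233). All 4 intervals lay below 1, in both media, so hsa-miR-16-5p gained on both miR-15 members. This was not particular to them. Of the 384 miRNAs in the edgeR fit, 327 (85.2%) had a lower log2 fold change between replicates than hsa-miR-16-5p. The summed blood-cell miRNAs were lower in replicate 2, at 1.07% and 0.472% in 231 EV and 231 -G EV against 20.1% and 43.0% in replicate 1, mostly through hsa-miR-451a. Without it they held 0.942% and 0.432% against 0.636% and 2.15%. When the totals also excluded hsa-miR-182-5p, the values in 231 EV were 0.945% in replicate 2 against 1.30% in replicate 1, so the direction in 231 EV depended on the total. Of the 8, 5 were higher in replicate 2 in 231 EV and 3 in 231 -G EV, and their part in these differences was not tested.

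**Figure D5:**
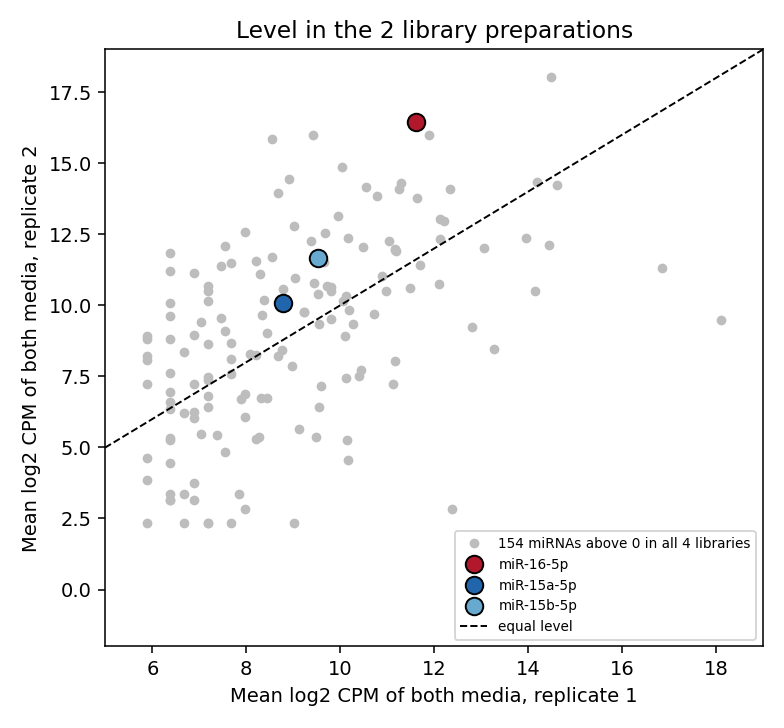
Mean log2 CPM over both media in replicate 1 (horizontal) and replicate 2 (vertical) of the 154 miRNAs above 0 in all 4 libraries, with 3 family members in colour and a dashed line of equal level. All 3 members lie above the line, and hsa-miR-16-5p, with a fitted log2 difference of 4.82, lies farthest from it among them.

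The miRNAs most like hsa-miR-16-5p in level pattern were sought among 150 miRNAs above 0 in all 4 libraries, leaving out the family members and their 3p strands, by the root mean square difference of log2(CPM + 1) after each was centred on its own mean. The closest was hsa-miR-29b-3p, known for targeting collagen messages, at 0.143, against a median of 2.41 over the 150. Its level was 326 CPM (6 reads) in 231 EV and 192 CPM (3 reads) in 231 -G EV of replicate 1, and 5143 and 7209 CPM in replicate 2. Next came hsa-miR-19b-3p, of the miR-17-92 cluster, at 0.335, with 2, 1, 571 and 885 reads, and hsa-miR-221-3p, known for targeting p27, at 0.372, with 11, 6, 4346 and 4463 reads. Each of them, like hsa-miR-16-5p, was lower in 231 -G EV in replicate 1 and higher in replicate 2, on few reads in replicate 1. They were chosen for likeness over these same libraries, so the shared directions follow largely from that choice. Hsa-miR-15b-5p at 1.37 and hsa-miR-15a-5p at 1.77 were less like hsa-miR-16-5p than these, and would have ranked 33 and 47 if set among the 150.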

How the data were processed

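Small RNA of MDA-MB-231 EVs was measured in 4 libraries, grouped by the labels into 231 EV and 231 -G EV. For each replicate, the deposited table holds whole-number counts of reads per miRNA. Beside them are deposited CPM values for replicate 1 and deposited TPM values for replicate 2, which equalled the count over the library total times 1000000, with no length term. The methods of the study name removal of other RNA classes through Rfam, Bowtie2 and matching to miRBase, and the submitters' processing notes name hg38, FastQC, cutadapt, Bowtie, Bowtie2, edgeR and StringTie, without versions. How reads that match several miRNAs were assigned is not given in the sources used here.

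All tests were run on the counts as deposited. Reads of a miRNA were compared within a pair by Fisher's exact test and between pairs by an exact test of equal odds ratios (SciPy 1.17.1). Across pairs, counts were fitted in edgeR 4.0.16 (R 4.3.3, quasi-likelihood test) with library totals and the replicate number as a block, on 384 miRNAs listed for both replicates and above 0 in at least 2 libraries. A call needed an adjusted p under 0.05 (Benjamini-Hochberg over all miRNAs tested) and, in edgeR, an absolute log2 fold change above 1. DESeq2 1.42.0 and limma 3.58.1, the latter on log2(CPM + 1), were alternatives, with other scalings, filters and denominators. The labels name kits for the libraries numbered 2 and do not settle which steps these shared with the libraries numbered 1. The number was used to pair the libraries. The departures from the group means correlated at 0.586 between libraries of the same number, over 384 miRNAs. The scripts were tested on simulated data.

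The miRNAs named are the members, others with their seed, their 3p strands, hsa-miR-424-5p and hsa-miR-503-5p, and the 3 closest in pattern to hsa-miR-16-5p. Outside this rule, hsa-miR-182-5p and hsa-miR-21-5p are named as abundant miRNAs left out of totals, and marker miRNAs beside the results they move with. The blood-cell list was hsa-miR-451a, hsa-miR-486-5p, hsa-miR-144-3p, hsa-miR-144-5p, hsa-miR-223-3p, hsa-miR-142-3p, hsa-miR-142-5p and hsa-miR-150-5p, and the epithelial list hsa-miR-200a-3p, hsa-miR-200b-3p, hsa-miR-200c-3p, hsa-miR-141-3p and hsa-miR-429. Members and lists were chosen with earlier results of these data known.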

Additional observations from a re-analysis of the deposited data

Results flagged for a closer look

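For hsa-miR-16-5p, the ratio of 231 -G EV over 231 EV in pair 2 was 2.34 times that in pair 1 (1.56 to 3.54), a difference between the pairs by an exact test of equal odds ratios (exact adjusted p = 8.3e-05). The miRNA had 70 reads in 231 EV and 40 in 231 -G EV of pair 1, against 15834 and 18955 in pair 2, so the width of the interval comes from pair 1. The test covers counting error only, and with 1 library of each medium in a pair the spread between libraries of a pair was not measured. The preparation and the replicate number cannot be told apart.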

How the results depend on the processing

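Across the pairs, the log2 fold change of hsa-miR-16-5p (0.06 as reported) was -0.38 with TMM scaling, -0.39 without hsa-miR-182-5p and -0.23 with DESeq2. That of hsa-miR-15b-5p (0.27) was -0.12 with TMM scaling and -0.13 without hsa-miR-182-5p. With each replicate left out in turn, hsa-miR-16-5p ranged from -0.57 to 0.66, hsa-miR-15a-5p from -0.90 to 0.33 and hsa-miR-15b-5p from 0.12 to 0.39, and hsa-miR-195-5p was 0.11 in replicate 2 alone. Without replicate 2 hsa-miR-16-5p was thus -0.57, and without replicate 1 hsa-miR-15a-5p was 0.33. These values of 1 pair carry no test. Adjusted p ranged from 0.995 to 1.00 for hsa-miR-16-5p and from 0.988 to 1.00 for the other 3 members over the tested alternatives. The median of all 384 log2 fold changes moved from 0.20 to -0.14 with TMM scaling and to -0.13 without hsa-miR-182-5p. Over all miRNAs, 1 was called without hsa-miR-182-5p and 1 without the filter on low values, neither a member, against 0 as reported. Without the replicate block, 0 were called and hsa-miR-16-5p was 0.61 (SE 3.35), and the block changed no call of a member. Between replicates, limma called 0 miRNAs against 66 with edgeR, and hsa-miR-15b-5p passed with TMM scaling (2.30, edgeR adjusted p = 0.0152), with a range of adjusted p from 0.0152 to 0.188 over the alternatives. The exact test between pairs called 24 miRNAs without hsa-miR-182-5p, of which 9 had the higher ratio in pair 2, against 41 with 4 such as reported. The median log2 difference of all miRNAs between replicates was 0.75 as reported, 0.27 without hsa-miR-182-5p, -0.08 with DESeq2, 0.93 with TMM scaling, 0.92 without the filter and 1.40 with limma, and it includes miRNAs that passed the filter through the deeper replicate 2 alone.

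In pair 1, without hsa-miR-182-5p or without both hsa-miR-451a and hsa-miR-182-5p, hsa-miR-15b-5p was 0.549 and 0.570 and hsa-miR-16-5p 0.340 and 0.353, the last with a Fisher's exact adjusted p of 3.64e-06. In pair 2 without hsa-miR-21-5p, hsa-miR-195-5p was 0.984, hsa-miR-16-5p 1.43 (1.40 to 1.46) and hsa-miR-15b-5p 1.19 (1.06 to 1.33; Fisher's exact adjusted p = 0.0132). The family share of 231 EV replicate 1 was 1.04% without hsa-miR-182-5p. Relative to the other members in place of hsa-miR-16-5p, 68.7% of miRNAs in pair 1 and 40.9% in pair 2 were higher in 231 -G EV. Hsa-miR-195-5p, 0.47 across the pairs as reported, was 0.82 with DESeq2 and 3.07 with limma. Over all alternatives, 10 values changed direction, 7 counts or shares moved beyond their limit (for a count, 1.5 times), 3 values came to pass the threshold and 1 no longer passed it, and the remaining 92 did none of these. The depth of replicate 1, with 0 to 70 reads for a member, limits what it can show.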
